A study of Mus musculus with 9 samples.

Results

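The genes described here are 6 of the 17132 in the deposited table, taken by symbol: the trefoil peptides Tff1 and Tff2, the membrane mucin Muc1, the fucosyltransferase Fut2, the polymeric immunoglobulin receptor Pigr and beta-defensin 1 (Defb1). They were chosen by function with their read counts in Model versus Control already known, so their values in that comparison are a description and carry no test. QYD versus Control uses the same Control libraries and is treated in the same way.

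Messenger RNA of whole pancreas was measured in 3 groups of C57BL/6 mice with a body weight of 22 to 25 g, with 3 libraries in each group. All mice received 7 hourly intraperitoneal injections. Control mice were injected with saline and given saline in place of the decoction. Model mice were injected with caerulein, a peptide that acts on cholecystokinin receptors and drives acinar cells to excess secretion, and the last injection also held lipopolysaccharide (LPS). They too were given saline in place of the decoction. QYD mice had the caerulein and LPS of the Model group and were dosed with Qingyi Decoction, a herbal medicine, at 0 and 8 h. The pancreas was collected at 24 h, counted from the start of the injections.

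These genes belong to the defence of a mucosal surface, the wet epithelium that lines ducts and the gut. Trefoil peptides are small secreted proteins that are released with mucins and help damaged epithelium to close. Membrane mucins such as Muc1 form a sugar-rich coat on the apical side of the cell. Fut2 adds terminal fucose to such sugar chains, on which the secretor blood group antigens and the binding of some microbes depend. Pigr carries polymeric IgA and IgM through the epithelial cell into the secretion. Defb1 is a cationic peptide of epithelia that kills microbes.

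Libraries held 19112923 to 20212744 estimated counts. Digestive enzyme transcripts filled most of a saline pancreas library, with 14 acinar marker genes alone at 639057 to 654207 CPM (counts scaled to a common library total) in Control and 350268 to 401700 in the other groups. The scaling of the libraries therefore decides how a gene compares with Control, and values are given on both of the scales below. The main one is the TMM scale of edgeR, on which the typical gene does not move (median log2 fold change 0.04 in Model versus Control). The other is library size alone, on which the median log2 fold change over all tested genes was 2.19 in Model versus Control and 2.09 in QYD versus Control. TMM factors were 0.359 to 0.397 in Control, 1.52 to 1.82 in Model and 1.36 to 1.79 in QYD. On the TMM scale 2736 genes were called higher and 2728 lower in Model versus Control, and on library size 12063 and 121. In tissue RNA, fewer cells of a type and less RNA per cell cannot be told apart. The labels do not say whether the libraries come from separate cages, days or batches, so p-values measure only the spread between these samples.

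The make-up of this gene group differed between saline and injured pancreas (Model and QYD, the groups given caerulein and LPS). In each Control library Tff2 gave 95.3% to 98.2% of the summed FPKM of the 6 genes, where FPKM is a level corrected for gene length and library total. In Model it gave 40.8% to 47.1%, and in QYD 42.6% to 46.3%. Defb1 went from 0.083% to 1.33% in Control to 27.1% to 34.7% in Model and 18.3% to 31.0% in QYD. Pigr gave at most 0.903% in Control, 5.15% to 17.5% in Model and 9.59% to 22.9% in QYD. Muc1 gave 1.57% to 2.38% in Control and 10.9% to 14.5% in the 6 injured libraries. These shares compare genes within a library and do not depend on the scaling between libraries.

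**Figure D1:**
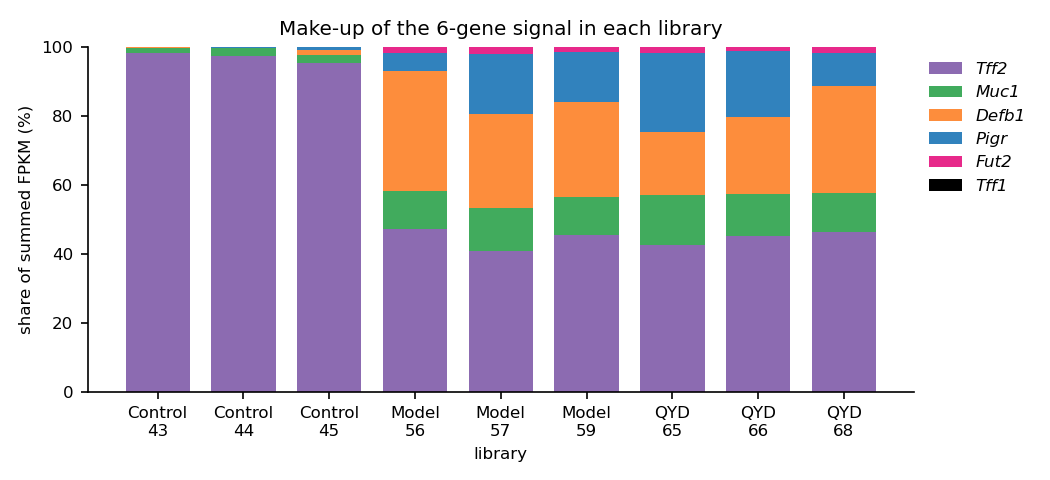
Share of each gene in the summed FPKM of the 6 genes (vertical axis, percent) for each of the 9 libraries (horizontal axis). Tff2 makes up at least 95.3% of every Control bar and at most 47.1% of every Model and QYD bar, where Defb1, Muc1 and Pigr fill most of the rest.

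Of the 6 genes 5 passed the filter on low counts, and Tff1 did not. In Model versus Control 3 were called higher (Fut2, Defb1 and Pigr), 1 lower (Tff2) and 1 not called (Muc1) in the quasi-likelihood test of edgeR, adjusted by Benjamini-Hochberg, at 0.05. Over all 12828 tested genes 42.6% were called in that comparison, 21.3% higher and 21.3% lower. The counts in QYD versus Control were the same for these genes, where 40.7% of all tested genes were called, 20.5% higher and 20.3% lower. On library size alone Muc1 was called higher as well in both comparisons, where 94% and 93.8% of tested genes were called higher and 0.943% and 0.99% lower. Both comparisons use the same Control libraries. For Tff2, Fut2, Pigr and Defb1 the injured libraries are described below as not overlapping with Control. How many of all genes separate from Control in this way was not counted, and nothing is read from it.

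**Figure D2:**
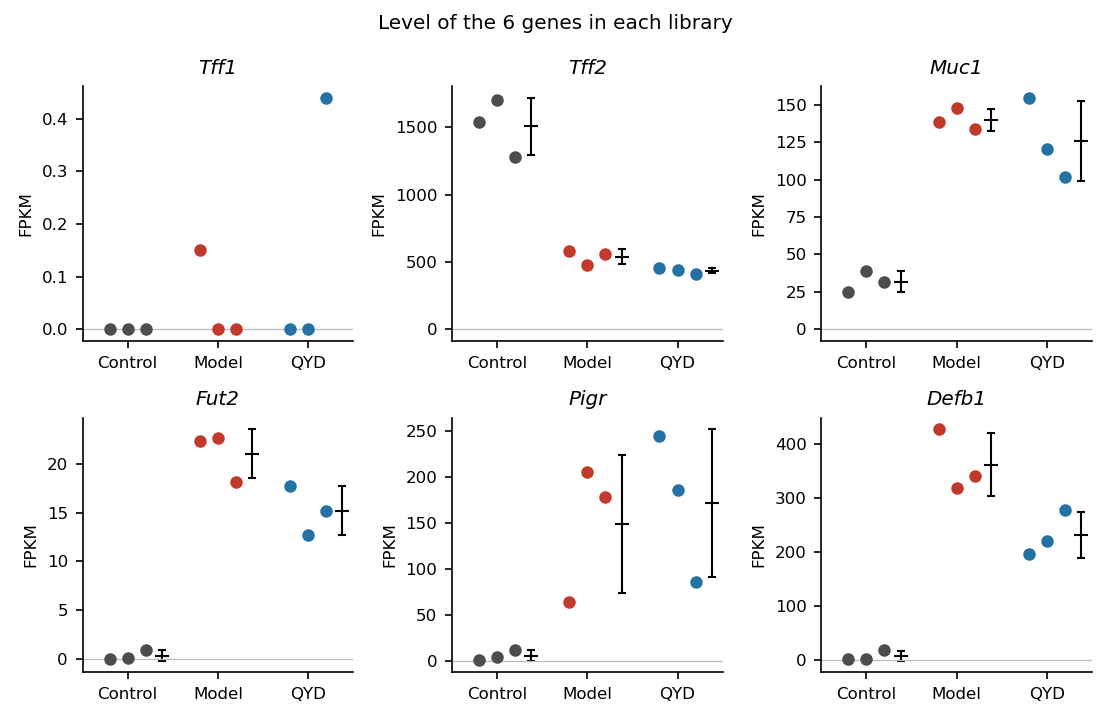
FPKM (vertical axes, linear and different for each gene) of the 6 genes in each library, shown as points by group. The black mark is the group mean with its SD over 3 libraries, left out for Tff1, which has 0 in 7 of 9 libraries. Tff2 is lower in every Model and QYD library than in any Control library, and Muc1, Fut2, Pigr and Defb1 are higher on this scale.

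Tff2, the spasmolytic polypeptide (chromosome 17, 31141062 to 31144282, GRCm38.p6, minus strand), was among the most abundant transcripts of the saline pancreas. Its FPKM was 1537, 1704 and 1279 in Control 43, 44 and 45, which ranked it 28th to 33rd of all genes. In Model 56, 57 and 59 it was 581, 477 and 561, and in QYD 65, 66 and 68 it was 454, 442 and 414, ranks 106 to 137. All 6 injured libraries lay below all 3 Control libraries. On the TMM scale Tff2 went from 1757 ± 278 CPM in Control (SD, n = 3) to 142 ± 20.9 in Model and 123 ± 10.7 in QYD. The log2 fold change was -3.62 ± 0.18 (SE) in Model versus Control and -3.83 ± 0.18 in QYD versus Control. On library size alone it was -1.48 ± 0.16 and -1.80 ± 0.16, so Tff2 was lower on both scales. The other trefoil genes lie next to it, Tff3 at a distance of 11.45 kb and Tff1 at 17.11 kb, with no protein-coding gene between them, and both were close to absent. Tff1, the trefoil peptide of the gastric surface (chromosome 17, 31161395 to 31165060), had 1 count in Model 56, 3 in QYD 68 and 0 in the other libraries, 4 counts in all. A count of 0 allows up to 0.148 to 0.157 CPM in these libraries, as counting error only. Tff3, the trefoil peptide of intestinal goblet cells, had 1 to 5 counts in each library. The tissue thus held transcripts of 1 trefoil gene of the 3 at a level that could be compared.

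Muc1 (chromosome 3, 89229056 to 89233381, plus strand) ranked nearer the top by FPKM in each Model library than in any Control library. Its QYD ranks overlapped with both groups. It ranked 282nd to 391st by FPKM in Control, 238th to 263rd in Model and 235th to 297th in QYD. Control 43, 44 and 45 held 145, 213 and 170 CPM of Muc1 on the TMM scale. In Model 56, 57 and 59 it was 161, 179 and 186 CPM, and in QYD 65, 66 and 68 it was 183, 165 and 158 CPM. The 3 groups overlapped. The log2 fold change was -0.01 ± 0.15 in Model versus Control, with a 95% interval of -0.34 to 0.33, and -0.06 ± 0.15 in QYD versus Control. On library size the same gene stood 2.13 ± 0.20 higher in Model and 1.97 ± 0.20 higher in QYD, close to the median gene on that scale. Its FPKM, which follows library size, was 31.9 ± 7.31 in Control, 140 ± 7.07 in Model and 126 ± 26.9 in QYD. The direction of Muc1 between Control and injured tissue therefore depends on the scale.

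The start regions of Muc1 and Pigr are shown to set a gene that was not called on the TMM scale (Muc1) beside one that was called higher (Pigr). They are the 2 of the 6 genes with an entry in the RefSeq promoter table (GRCm38.p6). Tff1, Tff2, Fut2 and Defb1 have none. Each runs 5′ to 3′ on the plus strand from 250 bases before the start of the gene to 30 bases after it. Capitals mark matches to motifs searched on both strands.
Muc1, chr3:89228806-89229085: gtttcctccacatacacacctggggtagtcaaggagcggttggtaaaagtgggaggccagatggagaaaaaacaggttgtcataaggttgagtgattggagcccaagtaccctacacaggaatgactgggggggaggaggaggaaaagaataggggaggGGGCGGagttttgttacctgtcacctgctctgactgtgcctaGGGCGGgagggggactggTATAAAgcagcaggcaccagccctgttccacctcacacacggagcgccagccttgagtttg
Pigr, chr1:130826434-130826713: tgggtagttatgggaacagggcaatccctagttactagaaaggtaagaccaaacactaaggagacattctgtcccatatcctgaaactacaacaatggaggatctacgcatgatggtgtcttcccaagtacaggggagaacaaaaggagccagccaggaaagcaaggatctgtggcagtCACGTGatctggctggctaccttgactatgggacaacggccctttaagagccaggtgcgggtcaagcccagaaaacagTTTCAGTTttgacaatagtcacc
The motifs were listed after these sequences had been seen. Muc1 held the GC box, GGGCGG, starting 91 and 49 bases before the start. It also held a TATA box, spelled TATAAA, 31 bases before the start. Pigr held an E-box, CACGTG, 71 bases before the start. The core of interferon regulatory factor sites, AANNGAAA, matched the minus strand of Pigr from base 8 after the start. The palindromic STAT motif TTCNNNGAA matched Pigr from base 40, beyond the stretch shown. The AP-1 motif (TGA and TCA with any base between them) and the NF-kB motif had no match in either window. Of 32851 promoter windows of 300 bases, 35.7% held the GC box, 13.6% the TATA box, 7.15% the E-box, 23.9% the interferon regulatory factor core and 8.30% the STAT motif. AP-1 was found in 7.81% and NF-kB in 8.46%. A match is a run of letters and not evidence of binding.

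Fut2 (chromosome 7, 45648591 to 45666394, minus strand) was nearly absent in the saline pancreas and clearly present after injury. It had 2, 7 and 56 estimated counts in Control 43, 44 and 45, against 1238, 1258 and 1010 in Model 56, 57 and 59. In QYD 65, 66 and 68 it had 979, 716 and 860. All injured libraries lay above all Control libraries, and Control 45 was the highest of its group. On the TMM scale the level was 2.76 ± 3.78 CPM in Control, 35.9 ± 1.37 in Model and 28.2 ± 4.04 in QYD. The log2 fold change was 3.67 ± 0.55 in Model versus Control, the 58th highest of 12828 tested genes, and 3.32 ± 0.55 in QYD versus Control. On library size it was 5.80 ± 0.59 and 5.33 ± 0.59.

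Fut1, which transfers the same sugar to other chains, lies 27.53 kb from Fut2 on chromosome 7, with Izumo1, Rasip1 and Mamstr between them. The FPKM of Fut1 was 1.42, 1.05 and 0.62 in Control 43, 44 and 45, 3.27, 2.36 and 2.83 in Model, and 2.23, 1.67 and 1.60 in QYD, in the order of library numbers. Within a library Fut2 stood at 0.028, 0.114 and 1.61 times the FPKM of Fut1 in Control, at 6.41 to 9.59 times in Model and at 7.62 to 9.44 times in QYD. On the TMM scale Fut1 had a log2 fold change of -0.70 ± 0.27 in Model versus Control and did not pass (adjusted p = 0.058, edgeR), while it passed as lower without Control 45 (-0.97, adjusted p = 0.0063). On library size it stood 1.46 higher, so its direction depends on the scale. In QYD versus Control Fut1 changed by -1.22 ± 0.28 on the TMM scale and by 0.83 on library size. Fut4, which makes the Lewis x sugar, was at 1.26 ± 0.96 CPM in Control, 4.83 ± 0.93 in Model and 4.29 ± 0.57 in QYD, a log2 fold change of 1.93 ± 0.39 in Model versus Control.

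Pigr (chromosome 1, 130826684 to 130852249, plus strand) was higher after injury and had the widest spread of the 5 tested genes in Model and in QYD. Its TMM level was 9.50, 41.9 and 114 CPM in Control 43, 44 and 45. In Model 56, 57 and 59 it was 130, 437 and 437 CPM, and in QYD 65, 66 and 68 it was 508, 448 and 234 CPM. Control 45 lay just below Model 56, and the groups did not overlap. The highest library exceeded the lowest 3.36-fold in Model and 2.17-fold in QYD, and for Defb1 these ratios were 1.29 and 1.85. Model 56, the lowest Model library for Pigr, had the highest summed levels of duct, gastric, intestinal, mesothelial and neutrophil markers in its group, and so did QYD 68, the lowest for Pigr in QYD. Their part in the level of Pigr was not tested. Krt19 is on both the duct and the mesothelial list, so these sums are not independent. The log2 fold change was 2.60 ± 0.72 in Model versus Control and 2.85 ± 0.72 in QYD versus Control, and 4.68 ± 0.75 and 4.89 ± 0.75 on library size. Without Control 44 Pigr was no longer called in Model versus Control, at 2.44 ± 0.88.

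Defb1 (chromosome 8, 21776555 to 21795185, plus strand) went from a low level to one of the more abundant transcripts. Its FPKM was 1.97, 1.45 and 17.8 in Control 43, 44 and 45, and 427, 317 and 340 in Model 56, 57 and 59. In QYD 65, 66 and 68 it was 195, 221 and 277. Its rank by FPKM was 513 to 4687 in Control, 134 to 155 in Model and 167 to 206 in QYD. No injured library overlapped with Control. On the TMM scale the log2 fold change was 3.56 ± 0.69 in Model versus Control and 3.05 ± 0.68 in QYD versus Control, and 5.67 ± 0.71 and 5.02 ± 0.69 on library size. Set against Tff2 in the same library, the FPKM of Defb1 was 0.00128, 0.000851 and 0.0139 times that of Tff2 in Control 43, 44 and 45. It was 0.605 to 0.736 times in Model and 0.430 to 0.669 times in QYD.

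By level per length, the order in Control was Tff2, Muc1, then Defb1 and Pigr, whose ranges overlapped (1.45 to 17.8 and 0.92 to 12.1 FPKM), then Fut2 (0.04 to 1.00), whose highest library overlapped with the lowest of Pigr, and Tff1. In Model the order was Tff2, Defb1, then Pigr and Muc1 with overlapping ranges (63.5 to 205 and 134 to 147), then Fut2 (18.1 to 22.6) and Tff1. In QYD Tff2 was again first, the ranges of Defb1 (195 to 277) and Pigr (85.7 to 244) overlapped, as did those of Pigr and Muc1 (102 to 155), and Fut2 followed (12.7 to 17.7).

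Control 45 stood closer to the injured libraries than Control 43 and 44 for Tff2, Fut2, Defb1 and Pigr on library size. It held 12.6 times the mean of Control 43 and 44 for Fut2, 10.4 times for Defb1 and 4.58 times for Pigr, which placed it 4.98%, 5.49% and 6.01% of the way to the mean of the 6 injured libraries. For Tff2 the ratio was 0.795, which placed it 29.3% of the way (570 CPM against 680 and 753 in Control 43 and 44). For Muc1 the ratio was 1.00. Neutrophil markers summed to 27.9 CPM on library size in Control 45, against 8.38 and 5.59 in Control 43 and 44, and to 293 to 530 in the injured libraries; their part in these values was not tested. Without Control 45 the log2 fold changes in Model versus Control were 5.90 ± 0.31 for Fut2, 5.54 ± 0.35 for Defb1, 3.70 ± 0.73 for Pigr, -3.75 ± 0.17 for Tff2 and -0.03 ± 0.17 for Muc1. In QYD versus Control they were 5.55, 5.04, 3.94, -3.96 and -0.09 in the same order.

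**Figure D3:**
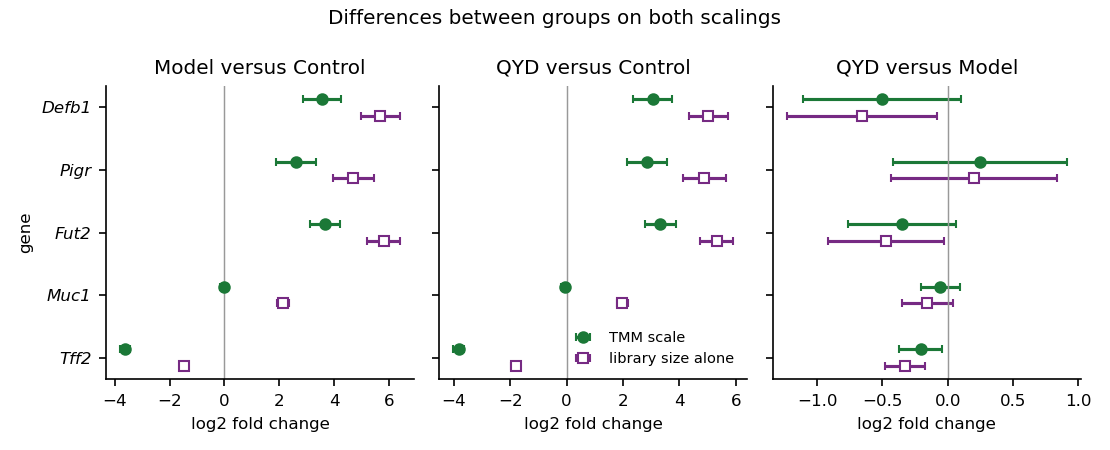
Log2 fold change with its standard error (horizontal axes, with a narrower range in the right panel) of the 5 tested genes in each comparison, on the TMM scale (filled circles) and on library size alone (open squares). Muc1 sits at 0 on the first scale and near 2 on the second in the comparisons with Control, and in QYD versus Model no gene passed the test on either scale.

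The decoction was compared with saline treatment in injured mice. None of the 5 tested genes passed edgeR's test, and neither did any other gene (0.00% of 12828 called, 750 at an unadjusted p under 0.05). Defb1 had the largest difference of these genes, -0.50 ± 0.60 (95% interval -1.83 to 0.83, adjusted p = 0.91, edgeR). On library size the 3 QYD libraries held 153, 173 and 216 CPM of Defb1, below the 252 to 336 of Model, while on the TMM scale the groups overlapped. Fut2 was lower in each of the 3 QYD libraries than in each Model library on both scales, at 28.6, 24.0 and 32.0 CPM against 34.8 to 37.5 on the TMM scale. Tff2 was also lower in each QYD library than in each Model library on library size, at 180 to 199 CPM against 214 to 256. On the TMM scale its groups overlapped. How many of all genes separate as Defb1, Fut2 and Tff2 do here was not counted, and nothing is read from this order. The log2 fold change of Fut2 was -0.35 ± 0.41 (-1.26 to 0.56, adjusted p = 0.91, edgeR). Tff2 stood at -0.21 ± 0.16 (-0.57 to 0.15, adjusted p = 0.86), Muc1 at -0.06 ± 0.15 (-0.39 to 0.28, adjusted p = 0.96) and Pigr at 0.25 ± 0.67 (-1.22 to 1.71, adjusted p = 0.96). Pigr stood at -0.14 without Model 56. For Pigr, Defb1 and Fut2 these intervals include a 2-fold difference in at least 1 direction, and for Tff2 and Muc1 they do not. Their width rests on the spread of all 3 groups, Control included. With only Model and QYD fitted, the values were -0.36 ± 0.12 for Fut2, -0.51 ± 0.22 for Defb1 and 0.24 ± 0.45 for Pigr. None of them passed (adjusted p = 0.46, 0.49 and 0.88, edgeR).

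The wider group of mucosal defence genes was described from lists drawn up by function, with earlier results of these data known, and counts below leave out the 6 genes. The members of the mucus gel itself were mostly close to absent. The gastrokine Gkn3, with 0 to 114 counts, stood at 2.90 ± 1.11 and did not pass (adjusted p = 0.055, edgeR). Of 9 secreted mucin and gel genes listed, 2 were tested. Muc2, Muc5ac, Muc5b, Muc6 and Muc19 had at most 7 counts in any library. The exception was Zg16, a lectin of the acinar zymogen granule and the goblet cell, which fell from 18061 ± 1838 to 1805 ± 507 CPM, a log2 fold change of -3.32 ± 0.24 (also lower on library size, at -1.2). Among membrane mucins Muc13 rose by 2.95 ± 1.09 from 0.22 ± 0.14 CPM and was not called without Control 45 (adjusted p = 0.080, edgeR). Muc20 did not pass (2.01 ± 1.04, adjusted p = 0.14) but did without Control 45 (adjusted p = 0.045, edgeR), and Muc4 had 0 to 70 counts and was not tested. The endothelial sialomucin Emcn rose by 0.51 ± 0.15 and was not called without Control 45 either (adjusted p = 0.051, edgeR).

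Of 18 tested enzymes that build mucin O-glycans 4 rose and 6 fell in Model versus Control, where 21.3% of all tested genes were called in each direction, with a median log2 fold change of -0.14 (1.99 on library size, where 17 were called higher and 1 lower). The sialyltransferase St3gal1 rose by 1.88 ± 0.28 and B3gnt3, which extends O-glycans, by 1.86 ± 0.26. St6galnac2, another sialyltransferase, fell by 1.22 on the log2 scale and the core branching enzyme Gcnt1 fell by 2.84. On library size St6galnac2 stood at 0.92 and Gcnt1 at -0.67. Of 15 fucosylation genes other than Fut2, 3 rose and 6 fell, and their median log2 fold change was -0.19. The counts of both lists lie near the share over all tested genes. On the scale of library size 15 of the 16, Fut2 included, were called higher and none lower. On that scale 94% of all tested genes were called higher. The GDP-fucose transporter Slc35c1 rose by 0.70 ± 0.12, Fuca2, a fucosidase, changed by -0.85 ± 0.12 and the related transporter gene Slc35c2 by -2.06 ± 0.13. On library size Fuca2 stood 1.30 higher and Slc35c2 did not pass, at 0.09. The GDP-fucose synthesis genes Gmds and Tsta3 were called lower on the TMM scale, at -0.54 and -0.50, and higher on library size, at 1.60 and 1.64.

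Of 12 genes of IgA transport and plasma cell recruitment other than Pigr, 5 rose and none fell, and the median log2 fold change was 0.33. Over all tested genes 21.3% were called higher and 21.3% lower in Model versus Control. By library size alone, with Pigr included, 9 of 13 were called higher and none lower in Model versus Control (median 2.55), and all 13 were higher in QYD versus Control. On that scale 94% of all tested genes were called higher in Model versus Control and 93.8% in QYD versus Control. Ccl28, a chemokine that attracts IgA plasma cells, rose by 2.50 ± 0.77 from 1.16 ± 1.2 CPM. Ap1m2, an epithelial sorting adaptor, rose by 0.64 ± 0.11, Rab25, a recycling GTPase, by 0.40 ± 0.13 and Xbp1 by 0.43 ± 0.13. Without Control 45 Xbp1 and Rab25 were not called. Jchain, the joining chain that Pigr binds, was at 5.59 ± 4.65 CPM in Control, 3.31 ± 4.82 in Model and 8.27 ± 6.45 in QYD and did not pass. Summed B and plasma cell markers ran from 31.1 to 43.5 CPM on library size in Control, were 10.1, 50.7 and 11.98 in Model 56, 57 and 59, and were 64.96, 61.6 and 13.4 in QYD 65, 66 and 68. On the TMM scale the sum was 78.3 to 121 CPM in Control. In Model 56, 57 and 59 it was 5.58, 28.9 and 7.90 CPM on that scale. For QYD 65, 66 and 68 it was 36.3, 40.1 and 9.87 CPM. The position of the injured libraries against Control therefore depends on the scale. The sum includes Derl3, an endoplasmic reticulum gene that secretory cells also use, at 87.1 ± 14.6 CPM on the TMM scale in Control and 4.98 ± 1.63 in Model. The library with the lowest sum was also the lowest for Pigr in Model (Model 56) and in QYD (QYD 68), while Model 57 and 59 differed in the sum and both held 437 CPM of Pigr on the TMM scale. The part of B and plasma cells in the level of Pigr was not tested. Of 10 receptors of mucosal cytokines 6 rose and 1 fell, among them Il4ra (2.12 ± 0.24), Il13ra1 (1.89 ± 0.28), Tnfrsf1a (1.06 ± 0.11) and Il17ra (0.86 ± 0.14) higher. The one that fell, the interleukin 22 receptor Il22ra1, was at -0.49 and was not called without Control 45. On library size all 10 were called higher, as were 94% of all tested genes.

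Of 22 antimicrobial genes other than Defb1, 14 rose and 3 fell, with a median of 2.38 against 0.04 over all tested genes. Of all tested genes 21.3% were called higher and 21.3% lower. The calprotectin subunits S100a8 and S100a9, which neutrophils carry, rose by 2.82 ± 0.44 and 3.04 ± 0.47. Plac8 rose by 1.81 ± 0.29, and the epithelial protease inhibitor Wfdc2 rose by 2.31 ± 0.33 from 0.56 ± 0.13 CPM. The 3 that fell on the TMM scale were the lysozymes Lyz1 (-1.44) and Lyz2 (-1.0) and Dmbt1 (-1.12), a pattern recognition protein of mucosal secretions, and on library size they stood higher (0.74, 1.19 and 1.02). The only further beta-defensin listed, Defb14, had at most 1 count, and beta-defensins outside the list were not examined. In QYD versus Model none of the genes of these lists passed edgeR's test. In QYD versus Control 14 antimicrobial genes rose and 2 fell, and 6 IgA transport genes rose and none fell, Defb1 and Pigr included. In that comparison 20.5% of all tested genes were called higher and 20.3% lower. In Model versus Control without Control 45, antimicrobial genes were higher in 14 and lower in 3 cases, Defb1 included, against 15 and 3 with it. O-glycan genes were higher in 4 and lower in 6 cases without it. On library size 22 of the 23 antimicrobial genes, Defb1 included, were called higher and none lower, where 94% of all tested genes were called higher.

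**Figure D4:**
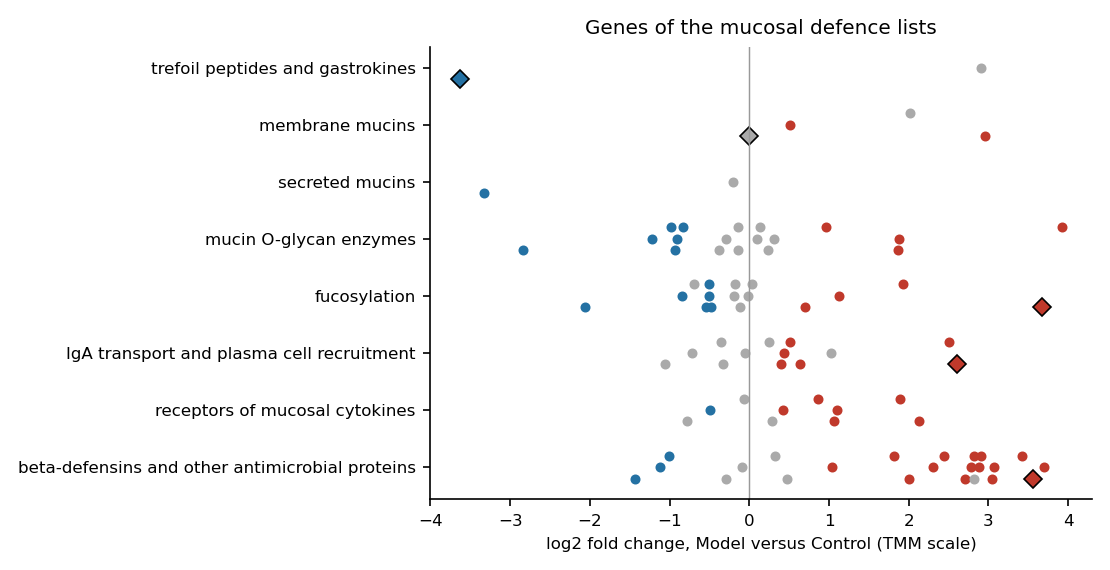
Log2 fold change in Model versus Control on the TMM scale (horizontal axis) of every tested gene in 8 mucosal defence lists. Red points were called higher, blue lower and grey not called, and diamonds are the genes Tff2, Muc1, Fut2, Pigr and Defb1. Points of the antimicrobial list lie mostly to the right, and those of the O-glycan and fucosylation lists on both sides of 0.

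Markers of other epithelia were examined beside these values. The 14 acinar markers were all tested and all called lower in Model on the TMM scale (13 without Control 45). On library size 10 were lower and 3 higher. Of 15 duct and biliary markers 11 rose and 1 fell in Model versus Control, or 9 and 1 without Control 45, and all 15 were detected in every library. Over all tested genes 21.3% were called higher and 21.3% lower in Model versus Control. On library size 14 of the 15 markers were called higher and none lower, where 94% of all tested genes were called higher. The summed level of the 15 markers on library size was 243 to 327 CPM in Control, 2688 to 5267 in Model and 2296 to 3633 in QYD. On the TMM scale it was 625 to 824 CPM in Control, 1772 to 2903 in Model and 1493 to 2672 in QYD. Krt19 rose by 2.01 ± 0.35, Epcam by 1.98 ± 0.19, Krt8 by 1.69 ± 0.29 and Krt18 by 1.32 ± 0.23. Sox9 was called lower, and Cftr was not called. The 8 gastric markers summed to 0.45 to 1.15 CPM on library size in Control and 11.2 to 24.6 in the injured libraries. On the TMM scale these sums were 1.15 to 3.21 CPM and 6.29 to 13.5 CPM. Among the gastric markers, Vsig1 and Pgc had at most 2 counts, Muc5ac at most 7 and Atp4a at most 14, and the sum came mostly from Anxa10, Ctse and Gkn3. Among 11 intestinal markers the sum on library size was 1.98 to 3.33 CPM in Control and 16.7 to 59.6 in injured libraries, in the injured libraries mostly from the keratin Krt20. On the TMM scale the intestinal sum was 5.09 to 8.39 CPM in Control and 9.35 to 32.8 in injured libraries. The enterocyte genes Sis, Lct, Fabp2 and Alpi had at most 7 counts in any library. The part of duct cells in the higher Fut2, Pigr and Defb1 was not tested.

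Profiles over the 9 libraries were compared with those of 10962 other genes, as the root mean square difference of log2(CPM + 0.5) after each gene's mean was removed. Tff2 was closest to genes of the acinar enzymes: the pancreatic lipase Pnlip (0.11), chymotrypsin C (Ctrc, 0.17) and the bile salt-dependent lipase Cel (0.17). Pnlip stood at a mean of 114685 CPM in Control, 9432 in Model and 8514 in QYD, with a log2 fold change of -3.60 in Model versus Control. Muc1 was closest to Kmt2b, Alad and R3hdm2 (0.05 to 0.06), whose log2 fold changes in Model versus Control were -0.07 to 0.03. Fut2 was closest to the protease inhibitor Timp1 (0.34), the neutrophil-attracting chemokine Cxcl5 (0.43) and Chil1 (0.44), and Defb1 to Cxcl5 (0.30), the anion transporter Slc26a9 (0.37) and Timp1 (0.40). Cxcl5 and Timp1 were thus named for both. Pigr was closest to Acox2 (0.43) and the acute phase genes Lrg1 (0.50) and Serpina3n (0.63). In Acox2 the same libraries stood low within their groups as in Pigr, with 5.90 CPM in Model 56 against 16.9 and 21.0 in Model 57 and 59, and 7.86 in QYD 68 against 11.5 and 16.0 in QYD 65 and 66. All these genes were picked for their likeness over the same 9 libraries. Features that they share with Tff2, Muc1, Fut2, Pigr or Defb1 therefore follow from the choice.

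**Figure D5:**
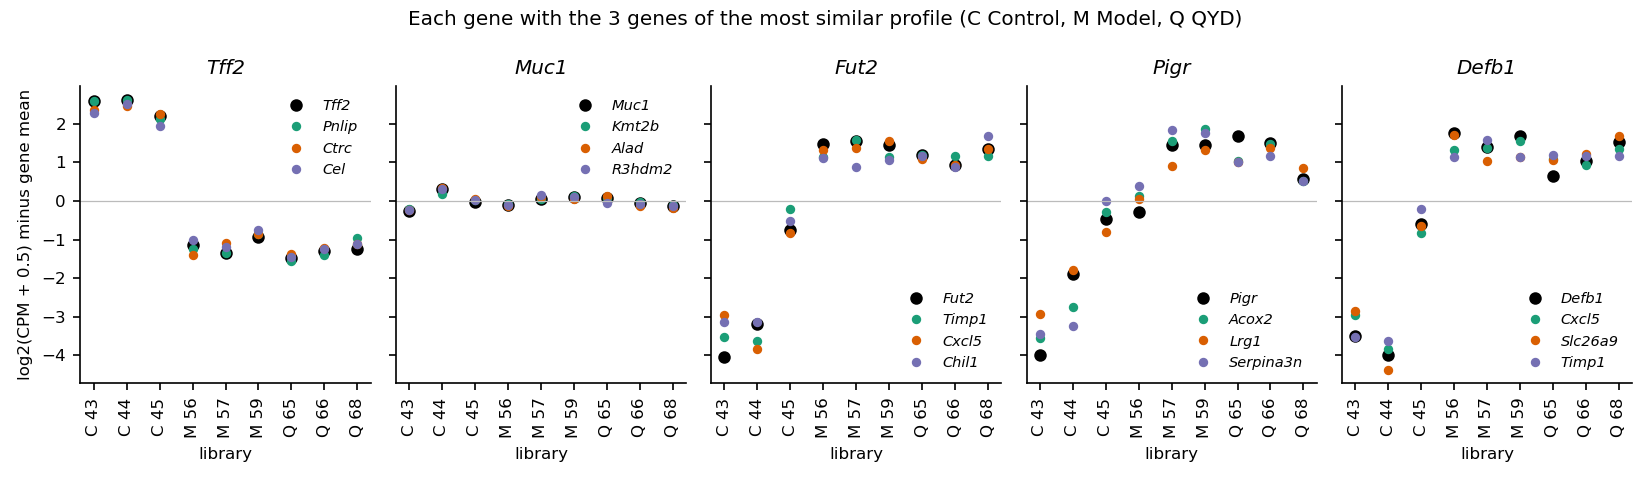
Centred log2(CPM + 0.5) on the TMM scale (vertical axis) in the 9 libraries (horizontal axis) for Tff2, Muc1, Fut2, Pigr and Defb1 (black) and the 3 genes closest to each (colours). Tff2 and the 3 acinar enzyme genes are high in Control and low in all injured libraries, and for Fut2, Pigr and Defb1 Control 45 lies above the other Control libraries.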

How the data were processed

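Per the submitters' processing notes the tools were RSEM 1.2.12, Bowtie2 2.2.5 and HISAT2 2.0.4, and the build GRCm38.p6, with no role stated. No source used here says whether counting used strand. Per the file headers the authors deposited read counts, taken here as RSEM's estimated counts, of which 93.5% are whole numbers, with FPKM and TPM values for each library. The deposited TPM values and the authors' group means were not used in a test. The rounded counts went into edgeR 4.0.16 (R 4.3.3). The default expression filter kept 12828 of 17132 genes. Libraries were TMM scaled and the 3 groups fitted in 1 quasi-likelihood model with no covariate, with Benjamini-Hochberg adjustment over all tested genes at 0.05. Standard errors are the log2 fold change divided by the square root of F. The common biological coefficient of variation was 0.175. Counts were also simulated with the spread typical of a gene's level, not each gene's own, and changes were placed in genes of at least 1 CPM. On simulated counts for QYD versus Model (12738 genes) the test found 87% of simulated 2-fold changes and 99% of 4-fold ones. For Model versus Control (12729 genes) the shares were 72% and 96%, and for QYD versus Control (12717 genes) 73% and 99%.

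The 6 genes and all lists were chosen with earlier results of these data known. Named besides the 6 were trefoil, fucosyltransferase and membrane mucin relatives, up to 4 genes per list with the smallest p in Model versus Control and at least 1 CPM in a group, and the 3 genes of the closest profile. Gmds, Tsta3, Jchain, Sox9, Cftr, Defb14, Derl3, Il22ra1, Lyz1, Lyz2, Dmbt1, Acox2 by library, and the secreted mucins and single gut markers given by their counts were chosen after their values were seen. The scaling was varied (library size alone, RLE, TMM with the 50 most abundant genes set aside), as were the filter (none, or 5 CPM in 3 libraries) and the samples (the compared groups only, each library left out). Other tools were DESeq2 1.42.0 and limma 3.58.1, the latter as voom with weights and on log2(FPKM + 1) or log2(FPKM + 0.1) for genes reaching 1 FPKM in 3 libraries. List counts without Control 45 and on library size were added after seeing the data. Coordinates come from RefSeq for GRCm38.p6, matched by gene ID. Of 50-base stretches of the annotated transcripts, 81.9% were unique to Tff1, 97.1% to Fut2, 99.5% to Pigr and 100% to Tff2, Muc1 and Defb1. Tff1 overlaps the gene model Gm15318 and Fut2 overlaps Gm39008, whose reads may not be separable.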

Additional observations from a re-analysis of the deposited data

How the results depend on the processing

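For Tff2, Fut2, Pigr and Defb1 in both comparisons with Control, every alternative kept the direction and the call, except that Pigr was not called in Model versus Control without Control 44. These genes were chosen with their counts in Model versus Control known, so the repeated calls are a description and no test. Muc1 in Model versus Control changed sign, to 2.13 on library size alone, 2.12 and 2.15 with limma on log2(FPKM + 1) and log2(FPKM + 0.1), 0.052 without a low-count filter, 0.040 with limma voom, and 0.05 without Model 56; with a library left out it ranged from -0.13 to 0.16. In QYD versus Control it changed to 1.97, 1.95 and 1.98 on library size and the 2 FPKM settings and ranged from -0.18 to 0.10 with a library left out, the highest in both comparisons without Control 44. FPKM and library size do not correct for the share that enzyme transcripts take. The cause of the changes of sign was not tested in any of these settings. Pigr in QYD versus Model ranged from -0.14 (without Model 56) to 0.51. The number of genes called in Model versus Control and QYD versus Control was 12184 and 12155 on library size, 10079 and 10077 with log2(FPKM + 1), and 10068 and 10059 with log2(FPKM + 0.1). With a library left out it ranged from 4583 to 5307 and from 4237 to 5139. In QYD versus Model it was 0 with DESeq2 (714 at an unadjusted p under 0.05), 0 with each library left out (353 to 1061 unadjusted), and 1 with limma voom and with each FPKM setting, the histone gene Hist2h2aa2 in each case, named after the calls were seen. No paired analysis was possible because the groups share no replicate numbers. At this depth and number of libraries 72% to 87% of simulated 2-fold changes were found, in genes with the spread typical of their level. In QYD versus Model Fut2, Defb1 and Pigr had standard errors of 0.41, 0.60 and 0.67, against a median of 0.19 over all tested genes. The simulated shares therefore cannot be carried over to these genes. Tff1 and Tff3 were too shallow to compare.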
